A study of Mus musculus with 8 samples.

Results

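The genotype by diet interaction asks how far the response of white adipocytes to a high-fat diet (HFD) differs between wild-type (WT) mice and mice whose adipocytes lack YAP and TAZ. It was computed for each gene as the difference between Ad-Yap/Taz-KO and WT on HFD minus the same difference on NC, the standard diet, on the log2 scale of the normalized count plus 1. A negative value therefore means that HFD raised the gene less, or lowered it more, in Ad-Yap/Taz-KO than in WT. All 8 samples of the series entered the contrast, and 18800 of the 30387 genes in the table had the mean of at least 5 needed to be tested.

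Ad-Yap/Taz-KO mice carried floxed alleles of both genes (Yap fl/fl;Taz fl/fl) and an Adipoq-Cre transgene. Its adiponectin promoter drives Cre recombinase in adipocytes from early life on. The deletion was thus constitutive, and its time was not measured here. WT were littermates, all mice were male, and HFD or NC was fed for 4 weeks from week 5 according to the series description, whereas the study's methods give a later start. White adipocytes were isolated from epididymal fat with collagenase, and total RNA depleted of ribosomal RNA was sequenced from 2 mice in each of the 4 groups. Cells other than adipocytes keep YAP and TAZ in this model, and their RNA can be part of the preparation.

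YAP and its paralog TAZ are transcriptional co-activators that bind DNA through TEAD factors and are held back by the kinases of the Hippo pathway. They control proliferation, survival and the response of cells to mechanical load. On a high-fat diet white adipocytes enlarge: they take up and esterify fatty acids, remodel the surrounding matrix and change their secreted hormones, and dying adipocytes attract macrophages.

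Reads on genes were estimated at 14000000 to 22300000 per sample. Between 18.7% and 32.2% of the genes in the table were listed at 0 in a sample, the most in the second WT sample on HFD. Wwtr1, which encodes TAZ, was at 5594 and 4743 in WT on NC, 7121 and 6807 in WT on HFD, 2441 and 1957 in Ad-Yap/Taz-KO on NC, and 2060 and 2707 in Ad-Yap/Taz-KO on HFD. Yap1 was at 2776 and 2717 in WT on NC, 2468 and 2333 in WT on HFD, 1669 and 1699 in Ad-Yap/Taz-KO on NC, and 1549 and 2068 in Ad-Yap/Taz-KO on HFD. Against WT, Wwtr1 differed in Ad-Yap/Taz-KO by -1.24 (log2) on NC and -1.56 on HFD, both called. Yap1 differed by -0.71 on NC, which was called, and by -0.42 on HFD, which was not (limma adjusted p = 0.059). Neither showed a called interaction (-0.32, adjusted p = 0.38, and 0.28, adjusted p = 0.41), and the source of the reads that remained in Ad-Yap/Taz-KO was not tested. The 2 WT samples on HFD were closer to each other than the other pairs in abundant genes. Among genes with 1000 to 5000 reads their squared difference was 5.50 times the counting expectation, against 17.9 in WT on NC, 35.8 in Ad-Yap/Taz-KO on NC and 48.3 in Ad-Yap/Taz-KO on HFD. Among genes with 5 to 20 reads they were not the closest, at 5.66 against 5.34 to 8.22. They are given as 2 values throughout, and the main counts of calls are also given with their mean as 1 sample. The 2 samples of a group came from separate mice. P-values rest on 1 spread per gene, shared over the groups and drawn toward a trend with abundance over all genes. An exact permutation test of 2 against 2 samples could not go below 0.333.

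Of the genes tested, 3274 (17.4%) had a called interaction, the call asking for an adjusted p of 0.05 or less and a log2 value of 0.59 or more in size. It was positive for 1633 (8.69%) and negative for 1641 (8.73%). With the WT samples on HFD as 1 sample 680 genes (3.62%) were called, of which 673 were among those 3274. HFD raised 1643 genes (8.74%) and lowered 1734 (9.22%) in WT, but raised 72 (0.383%) and lowered 130 (0.691%) in Ad-Yap/Taz-KO, where 2905 genes had an unadjusted p under 0.05. Among the genes called for the interaction, 1070 rose with HFD in WT only and 1123 fell in WT only. In Ad-Yap/Taz-KO only, 25 rose and 76 fell. A further 30 moved in opposite directions, 5 moved in the same direction to an unequal extent, and 945 had no called response in either genotype. The response in the other genotype need not be 0: of the 1070 genes that rose in WT only, 920 had a difference below 0 in Ad-Yap/Taz-KO, with a median of -0.29, and 183 of them moved there by at least 0.59 in either direction without being called. Of the 1123 that fell in WT only, 1049 had a difference above 0 in Ad-Yap/Taz-KO and 516 moved there by at least 0.59 without being called, so for many of them the absence of a response was not shown. For the 1123 genes that fell in WT only the median was -1.43 in WT, against 0.54 in Ad-Yap/Taz-KO.

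**Figure D1:**
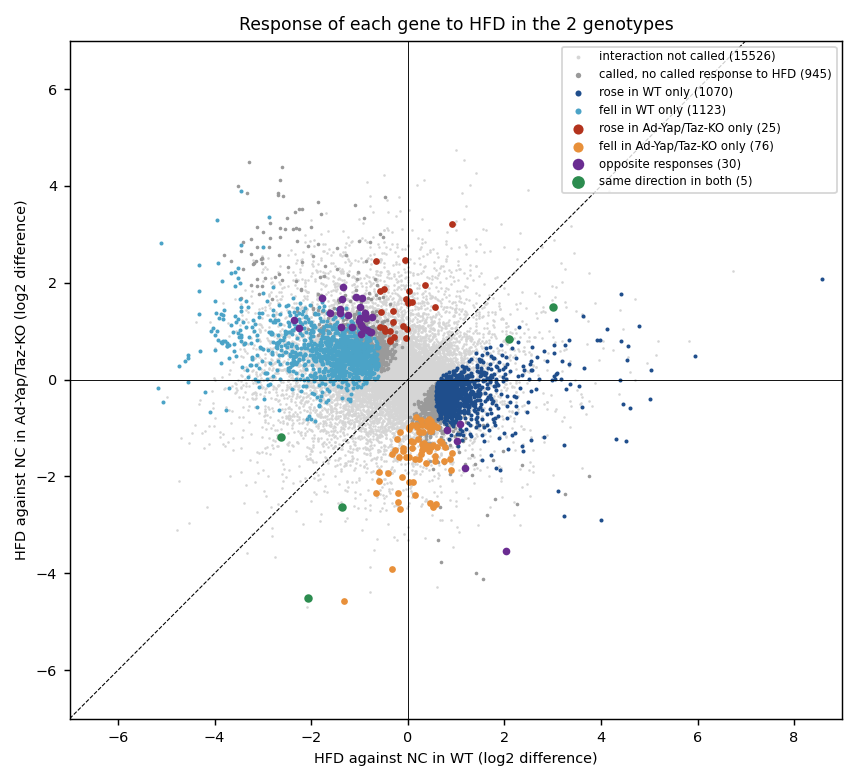
Log2 difference of HFD against NC in WT on the horizontal axis and in Ad-Yap/Taz-KO on the vertical axis for the 18800 genes tested, coloured by the response of the genes called for the interaction, with the number of genes in the legend and equal responses on the dashed line. The 2193 genes that responded in WT only lie to the left and right along the horizontal axis, and the 101 that responded in Ad-Yap/Taz-KO only lie above and below the centre.

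In 1760 of the 3274 genes (53.8%) the group that stood apart was WT on HFD, higher than the neighbouring groups in 882 and lower in 878. Here the response to HFD in WT and the genotype difference on HFD were called and the other 2 contrasts were not. Ad-Yap/Taz-KO on HFD stood apart in 83 genes, WT on NC in 72 and Ad-Yap/Taz-KO on NC in 3. These counts depend on how samples are scaled. The WT samples on HFD had the highest totals, 20994246 and 20815181 normalized counts against 14890264 to 17194214 in the other 6, and a single gene, the stearoyl-CoA desaturase Scd1, held 12.4% and 12.3% of them. Scaling all samples to the same total moved the median interaction of all genes from 0.10 to 0.52 and the calls to 2610 positive and 619 negative. All 1123 genes that fell in WT only kept that class, but only 258 of the 1070 that rose in WT only did. Values also moved with abundance: the median interaction was 0.95 for genes with a mean of 5 to 50, 0.0014 from 50 to 500, -0.30 from 500 to 5000 and -0.49 above that.

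The marker genes of other cells moved in the same pattern as many of the results below, and their part in them was not tested. In RNA of isolated cells, fewer cells of a type and less RNA per cell cannot be told apart. The summed normalized counts of the 9 adipocyte markers, 8 of them called negative against 8.73% of all genes, were 287124 and 305054 in WT on NC, 377369 and 369745 in WT on HFD, 249310 and 324436 in Ad-Yap/Taz-KO on NC, and 178144 and 95534 in Ad-Yap/Taz-KO on HFD. Cfd, which fell with HFD in both genotypes, made up much of the sums on NC. It was at 105691 to 117774 on NC and 16577 to 44882 on HFD, so the order of the sums rests in part on this gene. For the 15 macrophage markers, 11 of them called positive against 8.69% of all genes, the sums were 6398 and 6408 in WT on NC, 3644 and 3781 in WT on HFD, 32015 and 18427 in Ad-Yap/Taz-KO on NC, and 35356 and 32342 in Ad-Yap/Taz-KO on HFD, so they were high in Ad-Yap/Taz-KO on both diets and lowest in WT on HFD. Endothelial markers (8 of 10 called positive) summed to 28646 and 34330 in WT on NC, 17194 and 17786 in WT on HFD, 14870 and 26964 in Ad-Yap/Taz-KO on NC, and 22949 and 35045 in Ad-Yap/Taz-KO on HFD. Fibroblast and progenitor markers (6 of 10 called positive and 2 negative) were highest in Ad-Yap/Taz-KO on HFD, at 13667 and 13996, against 6657 to 9570 elsewhere. The 12 markers of lipid-associated macrophages (5 called positive and 1 negative) summed to 5386 to 6975 in WT and 28665 to 59089 in Ad-Yap/Taz-KO. Mesothelial sums ran from 200 to 771, with 1 marker called positive, and lymphocyte sums from 59 to 327, with none called. Adipocyte markers such as Adipoq were abundant in every sample, at 35132 and 33392 in WT on NC, 54830 and 53308 in WT on HFD, 26648 and 39149 in Ad-Yap/Taz-KO on NC, and 27322 and 13284 in Ad-Yap/Taz-KO on HFD. In WT on HFD the macrophage marker Fcgr1 was listed at 0 in 1 sample and Dcstamp of the lipid-associated list in both. With all samples scaled to the same total, 5 adipocyte markers were called negative. Positive calls were then 11 for macrophages, 9 for endothelial cells, 6 for fibroblasts and progenitors and 6 for lipid-associated macrophages.

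**Figure D2:**
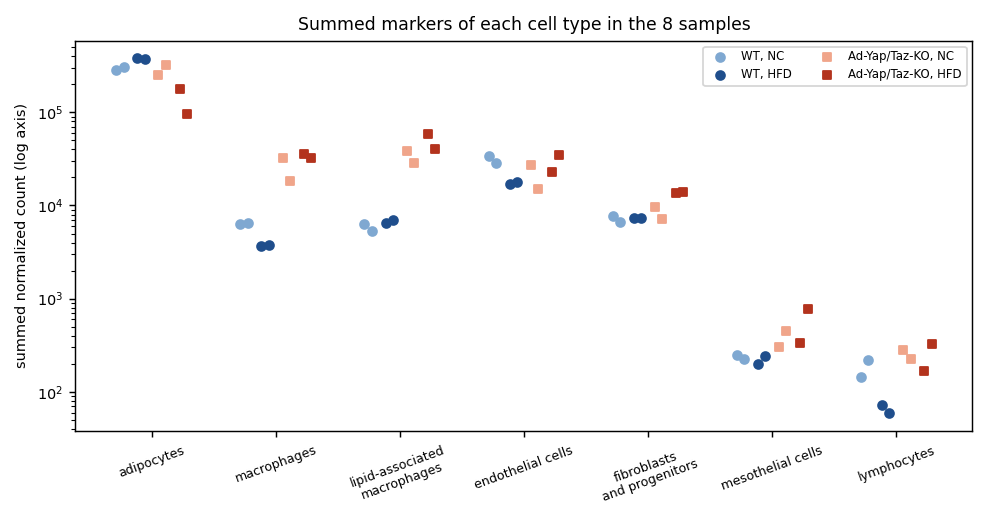
Summed normalized counts (log axis) of the markers of 7 cell types in each of the 8 samples, coloured by group. Adipocyte sums were lowest in the Ad-Yap/Taz-KO samples on HFD, 178144 and 95534, and macrophage sums were lowest in the WT samples on HFD, 3644 and 3781. Cfd, which fell with HFD in both genotypes, made up much of the adipocyte sums on NC, so the order of these sums rests in part on it.

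Genes that rose with HFD only where YAP and TAZ were present were led by 6 genes, which share no single function. Slc5a7, the high-affinity choline transporter (chr17:54273594-54299034, - strand), was at 0 and 7 in WT on NC, 1033 and 1131 in WT on HFD, 0 and 0 in Ad-Yap/Taz-KO on NC, and 1 and 8 in Ad-Yap/Taz-KO on HFD. The interaction was -6.49 ± 1.53 SE, adjusted p = 0.016, and its size depends on the added 1 where values are at or near 0. The gene was at 8 or less outside WT on HFD. Sfrp5, an adipokine that binds WNT ligands (chr19:42197971-42202252, - strand), was at 61 and 212 on NC and 3632 and 3956 on HFD in WT, against 40 and 19 on NC and 39 and 26 on HFD in Ad-Yap/Taz-KO. The interaction was -4.85 ± 0.71 SE, adjusted p = 0.0029. Its rise in WT was 5.04 on the log2 scale, and the difference in Ad-Yap/Taz-KO was 0.20, with a 95% interval of -0.89 to 1.29. Klf14, a transcription factor of adipose tissue (chr6:30956023-30959078, - strand), was at 14 and 11 in WT on NC, 329 and 239 in WT on HFD, and listed at 0 in all 4 Ad-Yap/Taz-KO samples, so the interaction of -4.39 (adjusted p = 0.034) is the rise in WT alone and also depends on the added 1. Like Slc5a7, Klf14 reached the mean needed to be tested only through WT on HFD. Both genes also reached the higher mean asked of named genes only through that group. Their p-values and their place among the 6 therefore rest on the group in which they were high. Golga7b, an accessory protein of palmitoylation (chr19:42247574-42270348, + strand), was at 19 and 12 on NC and 518 and 516 on HFD in WT, against 44 and 74 on NC and 77 and 24 on HFD in Ad-Yap/Taz-KO. Its interaction was -5.40 ± 0.74 SE, adjusted p = 0.0025. The interaction was -4.12 for Fgf13, an intracellular fibroblast growth factor homologue, and -4.19 for Unc79, a subunit of a sodium leak channel. Golga7b, Sfrp5 and Fgf13 stayed called with WT on HFD as 1 sample, while Slc5a7, Klf14 and Unc79 did not.

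The promoters of the first 2 of these genes with an entry in the RefSeq-based table for GRCm38.p6 are shown as the 250 bases before the annotated start, 5′ to 3′ on the gene's strand, with matches to the TEAD motif GGAATG on either strand in capitals; Slc5a7 holds none and the first of 2 annotated starts of Golga7b has a pair 97 and 78 bases before it, while the other has none.
Slc5a7, chr17:54299035-54299284, - strand: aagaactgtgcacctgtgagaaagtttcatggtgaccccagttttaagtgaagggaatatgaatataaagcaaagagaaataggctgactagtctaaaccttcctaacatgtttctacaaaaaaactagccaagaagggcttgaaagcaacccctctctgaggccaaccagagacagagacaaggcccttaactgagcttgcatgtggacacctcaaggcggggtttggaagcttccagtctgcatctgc
Golga7b, chr19:42247328-42247577, + strand: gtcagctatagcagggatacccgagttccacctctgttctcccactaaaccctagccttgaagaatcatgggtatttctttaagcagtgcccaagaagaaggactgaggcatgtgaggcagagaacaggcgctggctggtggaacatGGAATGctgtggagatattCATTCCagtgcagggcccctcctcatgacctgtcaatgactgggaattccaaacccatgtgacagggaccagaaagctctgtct
Over windows of 300 bases, which add 50 bases after the start, GGAATG was found on either strand in 11.5% of 1051 promoters of the genes that rose in WT only, 14.1% of 1004 of those that fell in WT only and 14.7% of all 32851 promoters in the table. The share was near the background in both classes. The other motifs searched, which the capitals of the later sequences mark, were the AP-1 site TGANTCA, the sterol response element TCACNCCAC, the E-box CACGTG and the interferon response motif GAAANNGAA, also on both strands, and a match is a description of the letters and not a site.

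Genes of lipid synthesis had a median interaction of -1.59, against 0.10 over all genes tested. As deposited it was the most negative median of the 39 function lists, but under quantile normalization cholesterol synthesis was lower (-1.15 against -1.09). The percentage beside each count of a list is its share of the list's tested genes, to be read against 8.69% positive and 8.73% negative over all genes. Of the 22 lipogenic genes, which build fatty acids from acetyl-CoA, 14 (63.6%) were called negative and none positive. The median response to HFD was 1.27 in WT against -0.23 in Ad-Yap/Taz-KO, and over all genes it was -0.08 in WT against 0.03 in Ad-Yap/Taz-KO. Fasn, the fatty acid synthase (chr11:120805846-120824547, - strand), was at 42835 and 44565 in WT on NC, 135080 and 138092 in WT on HFD, 18280 and 27415 in Ad-Yap/Taz-KO on NC, and 20503 and 9040 in Ad-Yap/Taz-KO on HFD. WT on HFD stood above every other sample, and the interaction was -2.36 ± 0.44 SE, adjusted p = 0.007. Acss2, which makes acetyl-CoA from acetate, was at 702 and 636 on NC and 5540 and 5748 on HFD in WT, against 622 and 1091 on NC and 1381 and 573 on HFD in Ad-Yap/Taz-KO. The interaction was -2.97 ± 0.47 SE, adjusted p = 0.0038. Insig1, the sterol-regulated brake on SREBP processing, was at 1916 and 1999 on NC and 11580 and 11254 on HFD in WT, against 2757 and 2869 on NC and 4565 and 2924 on HFD in Ad-Yap/Taz-KO. Its interaction was -2.17 ± 0.26 SE, adjusted p = 0.0014. Scd2, a desaturase, had an interaction of -2.30, and the called members also held Acly (-1.72), Acaca (-1.27), Elovl6 (-1.78) and Me1 (-1.84), which supply citrate-derived acetyl-CoA, malonyl-CoA, chain elongation and NADPH. Scd1 itself, at 457683 and 455110 on NC and 2602971 and 2567533 on HFD in WT, against 163234 and 233338 on NC and 501294 and 258238 on HFD in Ad-Yap/Taz-KO, had -1.62 and was not called (adjusted p = 0.073); it rose in WT by 2.5, with 0.88 in Ad-Yap/Taz-KO (95% interval -0.01 to 1.78). The regulators Srebf1 (-0.83) and Mlxipl (-0.63) were not called either. With the WT samples on HFD as 1 sample 6 members were called, and at equal totals 12, all negative.

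In cholesterol synthesis the median interaction was -1.13. Of 23 members 10 (43.5%) were called negative and all of these had risen in WT only, with a median response of 0.93 in WT against -0.02 in Ad-Yap/Taz-KO. Lss, the lanosterol synthase (chr10:76531588-76557138, + strand), was at 308 and 370 in WT on NC, 1204 and 1195 in WT on HFD, 338 and 318 in Ad-Yap/Taz-KO on NC, and 419 and 243 in Ad-Yap/Taz-KO on HFD. The interaction was -1.86 ± 0.34 SE, adjusted p = 0.0062. HFD raised it in WT above all other samples. Hmgcs1, which makes the precursor of mevalonate, had -1.72, and Nsdhl, a sterol dehydrogenase, -1.62. The sterol-regulated transcription factor gene Srebf2 (0.20) was not called. When the WT samples on HFD were counted once, 3 members were called, and 7 at equal totals.

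The promoter of Hmgcs1, chosen after its values were seen for its match to the sterol response element 128 bases before the start, is shown in the same way. The first bases after this start were found in no GENCODE vM21 transcript of the gene, and the gene's start with the deposited values is 119690462.
Hmgcs1, chr13:119690101-119690350, + strand: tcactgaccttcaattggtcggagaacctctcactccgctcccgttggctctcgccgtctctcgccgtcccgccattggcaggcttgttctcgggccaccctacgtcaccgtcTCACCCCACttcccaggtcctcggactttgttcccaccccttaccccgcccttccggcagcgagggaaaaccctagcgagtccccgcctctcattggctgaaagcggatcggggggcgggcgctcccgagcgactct
The element was found in 1 of 27 lipogenic promoters, 1 of 18 promoters of cholesterol synthesis and 1.24% of all promoters.

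Esterification, storage and uptake of fatty acids had medians of -0.80, -1.10 and -0.43; the last was -0.00014 at equal totals. In triglyceride synthesis 8 (42.1%) of 19 genes were called negative and 1 (5.26%) positive. Dgat2, which adds the last acyl chain, was at 11291 and 15712 on NC and 39078 and 38200 on HFD in WT, against 9127 and 14293 on NC and 11292 and 3792 on HFD in Ad-Yap/Taz-KO. Its interaction was -2.34 ± 0.54 SE, adjusted p = 0.014. Lpin1 (-1.87), Agpat2 (-1.68) and Mogat2 (-3.99) were also negative. Of 18 genes of lipolysis and lipid droplets 7 (38.9%) were called negative. The droplet coat gene Cidec was at 24593 and 31014 in WT on NC, 53794 and 55262 in WT on HFD, 22926 and 29310 in Ad-Yap/Taz-KO on NC, and 22406 and 7501 in Ad-Yap/Taz-KO on HFD. The interaction was -1.98 ± 0.52 SE, adjusted p = 0.023. Neither diet response was called for it, and the interaction joined 0.98 in WT, against -1.0 in Ad-Yap/Taz-KO. Plin4 (-1.79), Plin1 (-1.63) and the hormone-sensitive lipase Lipe (-1.59) were negative too. At equal totals triglyceride synthesis had 1 positive and 6 negative calls and droplets 1 positive and 4 negative. None of these 16 calls from the lists of synthesis and droplets held with WT on HFD as 1 sample. Of 16 genes of uptake 3 (18.8%) were called negative and 1 (6.25%) positive. Vldlr, a receptor for triglyceride-rich lipoproteins, was at 886 and 1166 on NC and 4470 and 4322 on HFD in WT, against 1150 and 1335 on NC and 1791 and 1087 on HFD in Ad-Yap/Taz-KO. Its interaction was -1.94 ± 0.31 SE, adjusted p = 0.0038. It held under that setting, and at equal totals the uptake list had 2 positive and 2 negative calls. Lpl, the lipoprotein lipase, had -1.27, and Gpihbp1, which anchors that enzyme to the endothelium, 1.28, the opposite sign. Gpihbp1 is an endothelial gene, and the summed endothelial markers were lower on HFD than on NC in WT. The part of endothelial cells in its value was not tested.

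Mitochondrial functions differed in how far their calls exceeded those of all genes. 15 (51.7%) of 29 genes of the citrate cycle and pyruvate entry were called negative and 1 (3.45%) positive. The negative calls were 6 (26.1%) of 23 of fatty acid oxidation and 7 (9.59%) of 73 nuclear-encoded genes of the respiratory chain, a share near the 8.73% of all genes. Dld, a shared subunit of pyruvate dehydrogenase and related complexes, was at 1534 and 1741 in WT on NC, 2567 and 2630 in WT on HFD, 1955 and 2472 in Ad-Yap/Taz-KO on NC, and 1763 and 1383 in Ad-Yap/Taz-KO on HFD. The interaction was -1.16 ± 0.24 SE, adjusted p = 0.01. Pcx, the pyruvate carboxylase, had -1.25, the succinate dehydrogenase subunit Sdhd -1.16, the oxidation enzymes Echs1 and Decr1 -1.22 and -1.22, and Ndufs1 of complex I -1.01. These calls depended on the scaling: at equal totals there were 1 negative and 2 positive calls in the citrate cycle and none in the other pair of lists, and none of the 3 lists kept a call with WT on HFD as 1 sample. The 7 genes of the mitochondrial genome had none called; mt-Co1, a subunit of cytochrome c oxidase, was at 77474 and 75428 on NC and 124687 and 119473 on HFD in WT, against 121444 and 146992 on NC and 182795 and 149726 on HFD in Ad-Yap/Taz-KO (-0.37, adjusted p = 0.48). Mitochondrial transcripts, ribosomal RNA among them, made up 9.51% to 10.4% of the total in WT and 12.7% to 18.7% in Ad-Yap/Taz-KO. The mitochondrial ribosomal RNA mt-Rnr2 alone held 7.79% and 7.99% in WT on NC. It held 10.4% and 13.1% in Ad-Yap/Taz-KO on NC, and 15.1% and 12.8% in Ad-Yap/Taz-KO on HFD. These libraries were depleted of ribosomal RNA, and the part of its remainder in these shares was not tested.

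In the breakdown of branched-chain amino acids 10 (47.6%) of 21 genes were called negative, and 4 of them fell in Ad-Yap/Taz-KO only, 3 rose in WT only and 3 had no called response. Ivd, the isovaleryl-CoA dehydrogenase, was at 3177 and 3246 in WT on NC, 3405 and 3489 in WT on HFD, 3038 and 4255 in Ad-Yap/Taz-KO on NC, and 1828 and 1174 in Ad-Yap/Taz-KO on HFD. HFD changed it by -1.29 on the log2 scale in Ad-Yap/Taz-KO, against 0.10 in WT. This is an interaction of -1.40 ± 0.30 SE, adjusted p = 0.011. Acadsb, the matching enzyme for isoleucine, was at 3908 and 4162 on NC and 4765 and 4888 on HFD in WT, against 4482 and 5274 on NC and 2820 and 1858 on HFD in Ad-Yap/Taz-KO. Its interaction was -1.35 ± 0.26 SE, adjusted p = 0.0081. Pcca, a propionyl-CoA carboxylase subunit (-1.37), was the member that held with WT on HFD as 1 sample, and 4 members were called at equal totals.

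The proteasome had 11 (35.5%) of 31 subunit genes called negative, each of which rose in WT only, with a median response of 0.62 in WT against -0.24 in Ad-Yap/Taz-KO. Psmc2, an ATPase of the regulatory particle, was at 625 and 686 on NC and 1306 and 1176 on HFD in WT, against 820 and 938 on NC and 791 and 573 on HFD in Ad-Yap/Taz-KO. The interaction was -1.30 ± 0.27 SE, adjusted p = 0.0094. It was lower in all 4 Ad-Yap/Taz-KO samples than in WT on HFD. At equal totals 1 proteasome gene was called and with WT on HFD as 1 sample none. Ribosomal protein genes stood apart from this: of 79 genes 2 were called, both positive (Rps14 1.23 and Rps16 0.98), although 17 were called positive at equal totals. In glycolysis 4 (23.5%) of 17 genes were called negative and 1 (5.88%) positive, with Pgam1 (-1.42), Tpi1 (-1.21) and Eno1 (-1.20) at the negative end. At equal totals glycolysis had 2 positive and 1 negative calls, and neither Tpi1 nor Eno1 was called there or with WT on HFD as 1 sample.

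Among secreted adipocyte proteins, 7 (33.3%) of 21 tested adipokine genes were called negative and 1 (4.76%) positive, although the list's median of -0.36 turned to 0.07 at equal totals. Lep, which encodes the satiety hormone leptin (chr6:29060220-29073877, + strand), was at 10493 and 19324 in WT on NC, 72885 and 73642 in WT on HFD, 6932 and 10784 in Ad-Yap/Taz-KO on NC, and 7257 and 1545 in Ad-Yap/Taz-KO on HFD. WT on HFD had the highest and Ad-Yap/Taz-KO on HFD the lowest single value, and the interaction was -3.73 ± 0.73 SE, adjusted p = 0.0079. Rbp4, a retinol carrier, was at 1695 and 2156 on NC and 7546 and 7574 on HFD in WT, against 1865 and 2935 on NC and 1942 and 618 on HFD in Ad-Yap/Taz-KO. Its interaction was -3.08 ± 0.54 SE, adjusted p = 0.0056. Adipoq had -1.42 and was called as deposited but not at equal totals. Cfd, the complement factor adipsin, fell in both genotypes, at 112117 and 115512 on NC and 44882 and 44048 on HFD in WT, against 105691 and 117774 on NC and 19352 and 16577 on HFD in Ad-Yap/Taz-KO. The log2 difference was -1.36 in WT, against -2.64 in Ad-Yap/Taz-KO, and the interaction was -1.28 ± 0.28 SE, adjusted p = 0.011. C1qtnf6, a paralog of adiponectin, had a positive interaction of 2.19. The adipokine list had 2 positive and 4 negative calls at equal totals, and 3 with WT on HFD as 1 sample.

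Caveolae, the membrane pits that are abundant in adipocytes and flatten under tension, had 6 (66.7%) of 9 genes called negative and a median response of 0.64 in WT against -0.65 in Ad-Yap/Taz-KO. Cav1, the main caveolin (chr6:17306335-17341452, + strand), was at 23499 and 26889 in WT on NC, 44067 and 43299 in WT on HFD, 19616 and 26330 in Ad-Yap/Taz-KO on NC, and 18868 and 10595 in Ad-Yap/Taz-KO on HFD. The interaction was -1.48 ± 0.35 SE, adjusted p = 0.016. Prkcdbp, which encodes a cavin, was at 1319 and 1998 on NC and 2895 and 3113 on HFD in WT, against 1221 and 1387 on NC and 829 and 422 on HFD in Ad-Yap/Taz-KO. Its interaction was -2.02 ± 0.38 SE, adjusted p = 0.0072. Cav2 had -1.33, Ehd2 -1.36 and Ptrf, another cavin, -1.17. Prkcdbp alone of these held with WT on HFD as 1 sample, and 4 of the list were called at equal totals. Of 22 genes of insulin signalling 7 (31.8%) were called negative. They held Slc2a4, the insulin-regulated glucose transporter (-1.18), Akt2 (-1.16) and Pde3b, the phosphodiesterase through which insulin restrains lipolysis (-1.12). At equal totals the list had 1 positive and 1 negative calls.

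Transcription factors and receptors of adipocytes were split. Of 18 factors 5 (27.8%) were called negative, among them Klf14, Klf15 (-1.48), Zfp423 (-1.35) and Pparg, the master regulator of adipocytes (-1.03), and 2 (11.1%) positive, among them Gata2 (1.60). Of 23 G protein-coupled receptors 6 (26.1%) were negative and 4 (17.4%) positive. Ptger3, a prostaglandin E2 receptor, was at 586 and 614 in WT on NC, 6002 and 6192 in WT on HFD, 495 and 579 in Ad-Yap/Taz-KO on NC, and 1431 and 632 in Ad-Yap/Taz-KO on HFD. The interaction was -2.52 ± 0.40 SE, adjusted p = 0.0038. Avpr1a, a vasopressin receptor, was at 231 and 196 on NC and 47 and 33 on HFD in WT, against 220 and 106 on NC and 187 and 346 on HFD in Ad-Yap/Taz-KO. Its interaction was 3.14 ± 0.56 SE, adjusted p = 0.0059. Gpr3 (2.41) and Sucnr1, the succinate receptor (-2.21), lay on opposite sides as well. Genes of fat expansion and imprinted genes had 7 (33.3%) negative and 4 (19.1%) positive calls of 21. The imprinted RNA H19 was at 15 and 16 on NC and 0 and 6 on HFD in WT, against 0 and 0 on NC and 18 and 15 on HFD in Ad-Yap/Taz-KO, values so low that the interaction of 6.76 (adjusted p = 0.019) rests on a few reads; Igf2 (2.99) and Meg3 (2.80 ± 0.50 SE, adjusted p = 0.0059) were also positive. The medians of the lists of factors, receptors and imprinted genes were below 0 as deposited and above 0 at equal totals, where the median of all genes moved as well. Calls at equal totals were 3 positive and 2 negative for factors, 7 positive and 3 negative for receptors and 4 positive and 5 negative for imprinted and expansion genes; with WT on HFD as 1 sample they were 0, 2 and 5 in either direction. Of 14 thermogenic genes 2 (14.3%) were called positive and 1 (7.14%) negative, against 8.69% and 8.73% of all genes. At equal totals 3 were positive and 1 negative, 2 were called with WT on HFD as 1 sample, and the list's median was 0.48 as deposited and -0.09 under quantile normalization. Gatm, the first enzyme of creatine synthesis, was at 117 and 178 on NC and 8 and 17 on HFD in WT, against 165 and 100 on NC and 261 and 360 on HFD in Ad-Yap/Taz-KO. The interaction was 4.76 ± 0.61 SE, adjusted p = 0.0017. Slc6a8, the creatine transporter, had 0.98, and Kcnk3, a potassium channel of adipocytes, -2.24.

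**Figure D3:**
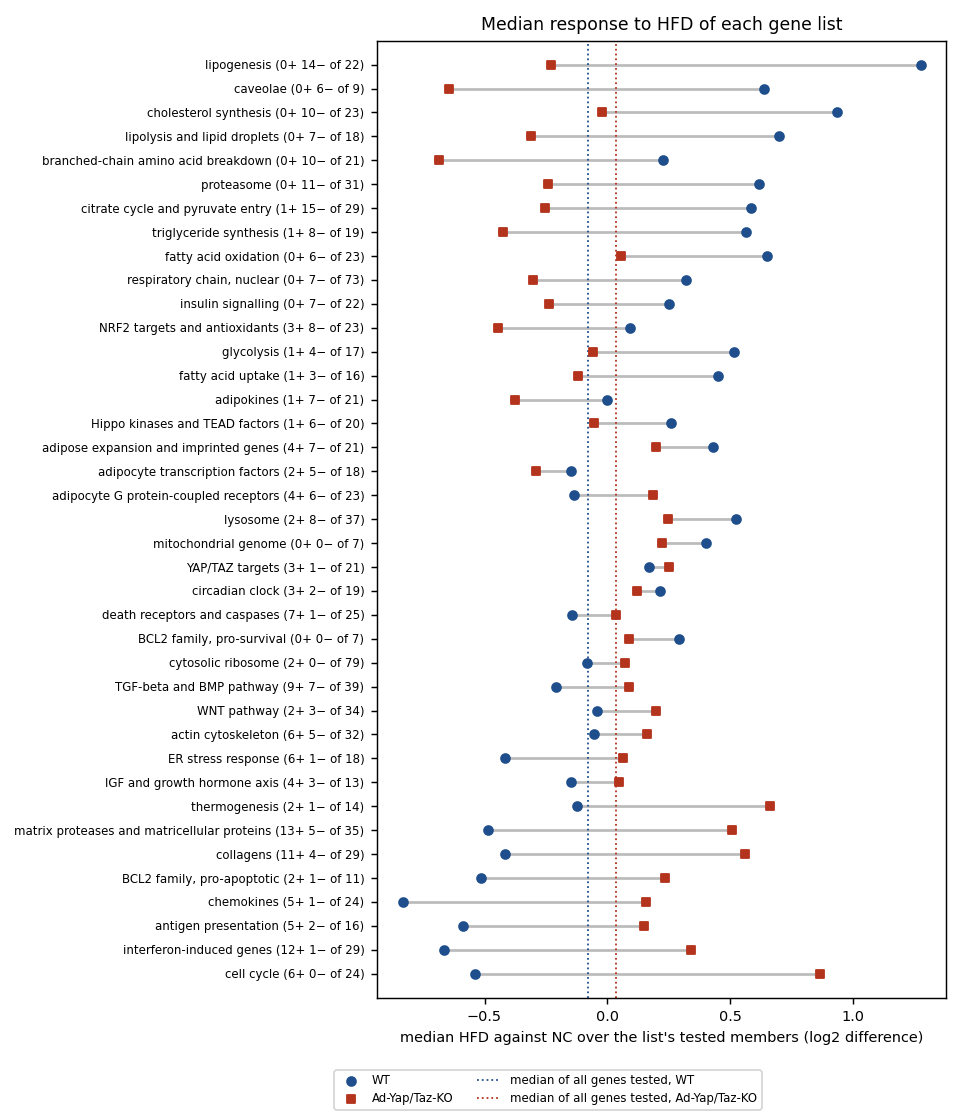
Median log2 difference of HFD against NC over the tested members of each of 39 gene lists, circles for WT and squares for Ad-Yap/Taz-KO, ordered by the median interaction, with the numbers of members called positive and negative for the interaction beside each name and the medians of all 18800 genes as dotted lines. In lipogenesis WT lies at 1.27 and Ad-Yap/Taz-KO at -0.23, and in cell cycle genes WT lies at -0.54 and Ad-Yap/Taz-KO at 0.86.

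Genes that fell with HFD in WT only were led by low-abundance genes of mixed roles. Pcp4l1, a small calmodulin-binding protein homologue (chr1:171173262-171196268, - strand), was at 71 and 66 in WT on NC, 3 and 0 in WT on HFD, 66 and 11 in Ad-Yap/Taz-KO on NC, and 257 and 154 in Ad-Yap/Taz-KO on HFD. Its interaction was 7.94 ± 1.18 SE, adjusted p = 0.003, a size that depends on the 1 added before taking logs, since WT on HFD was at 3 and 0. Kcna2, a voltage-gated potassium channel (chr3:107101146-107115005, + strand), was at 83 and 151 on NC and 6 and 8 on HFD in WT, against 79 and 57 on NC and 146 and 199 on HFD in Ad-Yap/Taz-KO. The interaction was 5.16 ± 0.64 SE, adjusted p = 0.0015. Cadm4, an adhesion molecule, was at 48 and 60 on NC and 7 and 2 on HFD in WT, against 57 and 20 on NC and 100 and 122 on HFD in Ad-Yap/Taz-KO. Its interaction was 5.16 ± 0.93 SE, adjusted p = 0.0059. In each of these genes both WT samples on HFD lay below the other 6. Fam83f (5.22), the uncharacterised 4933430L12Rik (4.99) and Gatm completed the 6, and all of them stayed called with WT on HFD as 1 sample.

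The promoters of Pcp4l1 and Kcna2 are shown as above. Pcp4l1 holds matches to the interferon response motif on the other strand, 223, 195 and 169 bases before the start, and Kcna2 holds no match to any motif searched.
Pcp4l1, chr1:171196269-171196518, - strand: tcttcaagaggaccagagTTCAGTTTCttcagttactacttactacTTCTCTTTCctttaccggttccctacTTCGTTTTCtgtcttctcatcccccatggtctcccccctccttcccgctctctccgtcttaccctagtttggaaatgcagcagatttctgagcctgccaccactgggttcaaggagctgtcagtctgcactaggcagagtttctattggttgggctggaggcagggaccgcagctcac
Kcna2, chr3:107101317-107101566, + strand: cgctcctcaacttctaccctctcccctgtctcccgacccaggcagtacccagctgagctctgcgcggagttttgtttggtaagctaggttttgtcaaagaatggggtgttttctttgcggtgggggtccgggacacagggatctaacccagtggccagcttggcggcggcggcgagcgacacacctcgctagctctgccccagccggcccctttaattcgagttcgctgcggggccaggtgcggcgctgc

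The collagen family was split. Of 29 collagen chains 11 (37.9%) were called positive and 4 (13.8%) negative, and 9 were called with WT on HFD as 1 sample. At equal totals 12 positive and 3 negative were called. Col6a5, a chain of the beaded-filament collagen VI (chr9:105856070-105960643, - strand), was at 4107 and 4446 in WT on NC, 784 and 882 in WT on HFD, 8540 and 6054 in Ad-Yap/Taz-KO on NC, and 13956 and 20276 in Ad-Yap/Taz-KO on HFD. It fell by 2.36 on the log2 scale in WT and rose by 1.23 in Ad-Yap/Taz-KO, an interaction of 3.59 ± 0.29 SE, adjusted p = 0.00034. The groups did not overlap. Col6a6, another chain of collagen VI, was at 1466 and 1485 on NC and 344 and 320 on HFD in WT, against 2279 and 1881 on NC and 2826 and 4129 on HFD in Ad-Yap/Taz-KO. The interaction was 2.87 ± 0.27 SE, adjusted p = 0.00044. The fibrillar chains Col1a1 (1.58), Col1a2 (2.04) and Col3a1 (0.99) were positive too. The remaining chains of collagen VI, Col6a1 (-0.27), Col6a2 (-0.22) and Col6a3 (0.14), were not called. In basement membrane collagen IV, Col4a6 (3.39 ± 0.58 SE, adjusted p = 0.005) and Col4a5 (2.67) were positive, whereas Col4a2 was negative (-0.90) and Col4a1 not called (-0.73). Col12a1 (-2.32), Col15a1 (-1.35) and Col5a3 (-1.16) were the other negative calls, and Col7a1, the anchoring fibril chain, had 3.02.

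Matrix proteases and matricellular proteins had 13 (37.1%) positive and 5 (14.3%) negative calls of 35, with 8 calls when WT on HFD counted as 1 sample, and with 18 positive and 3 negative at equal totals. Mmp2, a gelatinase (chr8:92827291-92853420, + strand), was at 1240 and 1034 in WT on NC, 294 and 365 in WT on HFD, 1557 and 969 in Ad-Yap/Taz-KO on NC, and 3659 and 4228 in Ad-Yap/Taz-KO on HFD. Its interaction was 3.46 ± 0.31 SE, adjusted p = 0.00044. Mmp14, the membrane protease that activates it, was at 1173 and 936 on NC and 378 and 415 on HFD in WT, against 1476 and 628 on NC and 2587 and 2687 on HFD in Ad-Yap/Taz-KO. The interaction was 2.85 ± 0.42 SE, adjusted p = 0.0029. Both fell in WT and rose in Ad-Yap/Taz-KO. Positive calls also held Mmp11 (3.34), Adamts15 (2.81), Timp2, which takes part in the activation of Mmp2 (2.24), the small proteoglycans Lum (2.40) and Dcn (2.03), Eln (1.60) and Postn (1.98). Tnc (-1.86), Timp4 (-1.82), Thbs1 (-1.50), Adamts5 (-1.33) and Sparc (-0.99) were called negative. Many of the positive genes are also made by fibroblasts, whose marker Pdgfra was at 1310 and 993 on NC and 402 and 455 on HFD in WT, against 1544 and 1063 on NC and 2789 and 3960 on HFD in Ad-Yap/Taz-KO. Its interaction was 2.79 ± 0.32 SE, adjusted p = 0.0013. Fibroblast markers thus moved with this list, and their part was not tested. Other fibroblast markers did not: Dpt (-1.10) and Cd55 (-1.10) were called negative.

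Growth factor pathways had members on both sides. In the TGF-beta and BMP pathway 9 (23.1%) of 39 genes were positive and 7 (17.9%) negative. The ligand Tgfb1 (1.72) and the receptor Tgfbr2 (0.94) were positive, as were the targets Id1 (1.70) and Id2 (1.84), and the receptors Acvr1c (-1.31), Acvr1b (-1.04) and Bmpr1a (-0.98) negative. The activin inhibitors Fst and Fstl3 went opposite ways. Fst was at 149 and 170 in WT on NC, 105 and 53 in WT on HFD, 225 and 137 in Ad-Yap/Taz-KO on NC, and 486 and 675 in Ad-Yap/Taz-KO on HFD. The interaction was 2.78 ± 0.50 SE, adjusted p = 0.0059. Fstl3 was at 59 and 78 on NC and 246 and 232 on HFD in WT, against 59 and 42 on NC and 34 and 19 on HFD in Ad-Yap/Taz-KO. Its interaction was -2.74 ± 0.59 SE, adjusted p = 0.011. Fst rose in Ad-Yap/Taz-KO and fell in WT, while Fstl3 rose in WT only. The WNT pathway had 2 (5.88%) positive and 3 (8.82%) negative calls of 34. Both shares of the WNT list were near or below those of all genes. Sfrp1, a paralog of Sfrp5, was at 416 and 477 on NC and 107 and 92 on HFD in WT, against 464 and 193 on NC and 345 and 666 on HFD in Ad-Yap/Taz-KO. The interaction was 2.83 ± 0.54 SE, adjusted p = 0.0072, the reverse sign of Sfrp5. The receptors Lgr4 (-1.42) and Fzd4 (-1.30) were negative. In the IGF axis 4 (30.8%) were positive and 3 (23.1%) negative of 13. Pappa, the protease that frees IGF from its binding proteins, was at 188 and 226 on NC and 18 and 22 on HFD in WT, against 182 and 126 on NC and 92 and 265 on HFD in Ad-Yap/Taz-KO. Its interaction was 3.35 ± 0.64 SE, adjusted p = 0.0072. Igfals, which carries IGF in plasma, had -2.01. Equal totals gave 11 positive and 3 negative calls in the TGF-beta and BMP pathway, 3 positive and 2 negative in the WNT pathway and 5 positive and 3 negative in the IGF axis. Counting WT on HFD as 1 sample gave 2, 2 and 2 calls.

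Of 32 cytoskeletal genes 6 (18.8%) were called positive and 5 (15.6%) negative. The regulatory light chain Myl9 was at 676 and 456 on NC and 169 and 261 on HFD in WT, against 286 and 216 on NC and 332 and 507 on HFD in Ad-Yap/Taz-KO. The interaction was 2.12 ± 0.42 SE, adjusted p = 0.0082. Tpm2 had 1.75 and Cnn3 1.32, while Myl6 had -1.28. The split depended on the scaling: at equal totals 12 positive and 1 negative were called, and 1 with WT on HFD as 1 sample. Unfolded protein response genes had 6 (33.3%) positive and 1 (5.56%) negative calls of 18. The stress factor Atf3 was at 6664 and 7843 on NC and 2650 and 2546 on HFD in WT, against 4124 and 4609 on NC and 4412 and 4665 on HFD in Ad-Yap/Taz-KO. Its interaction was 1.53 ± 0.21 SE, adjusted p = 0.0024. The chaperone Hspa5 had 0.96. This list had 8 positive and 0 negative calls at equal totals and 1 with WT on HFD as 1 sample. Among 23 NRF2 targets and antioxidants 8 (34.8%) were negative and 3 (13%) positive. Sod3, the extracellular superoxide dismutase, was at 3601 and 3727 in WT on NC, 10221 and 10227 in WT on HFD, 4031 and 4690 in Ad-Yap/Taz-KO on NC, and 3376 and 1536 in Ad-Yap/Taz-KO on HFD. The interaction was -2.41 ± 0.38 SE, adjusted p = 0.0036. Gstm1 had -1.68, Gsta4 -1.78 and catalase, Cat, -1.40. At equal totals 4 positive and 4 negative were called, Cat not among them, and 2 with WT on HFD as 1 sample.

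In the circadian clock 3 (15.8%) of 19 genes were positive and 2 (10.5%) negative. Npas2, a DNA-binding partner of the clock factor encoded by Arntl, was at 113 and 86 in WT on NC, 1 and 8 in WT on HFD, 106 and 97 in Ad-Yap/Taz-KO on NC, and 89 and 107 in Ad-Yap/Taz-KO on HFD. Its interaction was 4.50 ± 0.88 SE, adjusted p = 0.0079. It was close to 0 in WT on HFD and between 86 and 113 in the other groups. Arntl itself had 1.32, the repressor Per2 -0.95 and Ciart, another repressor, 1.99; at equal totals Per2 was not called and the list had 4 positive and 0 negative calls, and 1 with WT on HFD as 1 sample. The hour at which tissue was taken is not given in the sources used here.

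The promoter of Ciart, picked after its values were known because 3 E-box matches, 110, 52 and 38 bases before the start, stand in it, is shown with these in capitals; 6 of 21 clock promoters (28.6%) and 7.15% of all promoters held the motif.
Ciart, chr3:95882229-95882478, - strand: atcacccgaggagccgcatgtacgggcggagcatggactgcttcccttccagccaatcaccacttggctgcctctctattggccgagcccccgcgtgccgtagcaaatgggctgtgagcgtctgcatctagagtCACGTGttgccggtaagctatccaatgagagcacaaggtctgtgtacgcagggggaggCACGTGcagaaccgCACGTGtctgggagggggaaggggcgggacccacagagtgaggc

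Of 29 interferon-induced genes 11 fell with HFD in WT and 2 rose, against 2 and 2 in Ad-Yap/Taz-KO. Over all genes 9.22% fell and 8.74% rose in WT, while 0.691% fell and 0.383% rose in Ad-Yap/Taz-KO, and both counts of the list in Ad-Yap/Taz-KO lay above these shares. The interaction was positive for 12 (41.4%) and negative for 1 (3.45%), with a median response of -0.67 in WT against 0.34 in Ad-Yap/Taz-KO. Oasl1, an antiviral regulator of the OAS family (chr5:114923240-114937915, + strand), was at 364 and 427 in WT on NC, 141 and 116 in WT on HFD, 1143 and 864 in Ad-Yap/Taz-KO on NC, and 2723 and 2467 in Ad-Yap/Taz-KO on HFD. The interaction was 3.0 ± 0.28 SE, adjusted p = 0.00044. It fell in WT and rose in Ad-Yap/Taz-KO, and the 4 groups did not overlap. Oas2 was at 80 and 70 on NC and 17 and 12 on HFD in WT, against 59 and 43 on NC and 91 and 152 on HFD in Ad-Yap/Taz-KO. Its interaction was 3.52 ± 0.65 SE, adjusted p = 0.0063. Oas3, with values of 41 or less in every sample, had 4.59, and Isg15, a ubiquitin-like protein, 2.30. Ifit3 was the negative call (-1.71), while Ifit1 was positive (1.33) and so was the signal transducer Stat2 (0.84). 3 members stayed called with WT on HFD as 1 sample, and 14 were positive at equal totals. Macrophage markers were lowest in the same samples, and their part in this list was not tested.

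The promoters of Oas3 and Isg15, chosen after their values were seen for their matches to the interferon response motif, are shown with motif matches in capitals; Oas3 also holds a pair of AP-1 matches, 102 and 47 bases before the start.
Oas3, chr5:120777660-120777909, - strand: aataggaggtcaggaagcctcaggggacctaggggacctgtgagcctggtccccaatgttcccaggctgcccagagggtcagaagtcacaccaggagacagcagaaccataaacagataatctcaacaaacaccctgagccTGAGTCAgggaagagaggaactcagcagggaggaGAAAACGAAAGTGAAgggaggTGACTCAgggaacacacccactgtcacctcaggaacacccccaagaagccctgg
Isg15, chr4:156200819-156201068, - strand: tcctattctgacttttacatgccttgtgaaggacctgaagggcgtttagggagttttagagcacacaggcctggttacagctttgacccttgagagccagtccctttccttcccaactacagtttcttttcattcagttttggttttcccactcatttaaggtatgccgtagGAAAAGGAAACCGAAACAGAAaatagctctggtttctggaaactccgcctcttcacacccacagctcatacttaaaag
The motif stood in 14 of 26 promoters of the list (53.8%), against 8.56% of all promoters, 9.66% of those of genes that fell in WT only and 7.52% of those of genes that rose in WT only.

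Of 16 genes of antigen presentation 5 (31.2%) were positive and 2 (12.5%) negative, and of 24 chemokine genes 5 (20.8%) were positive and 1 (4.17%) negative. These lists had medians of 0.86 and 0.82. The MHC class II gene H2-Ab1 was at 1040 and 1136 on NC and 484 and 445 on HFD in WT, against 2828 and 1677 on NC and 3136 and 3289 on HFD in Ad-Yap/Taz-KO. The interaction was 1.79 ± 0.30 SE, adjusted p = 0.0044. Cd74, the invariant chain, had 1.76 ± 0.26 SE, adjusted p = 0.003. Cxcl12, a stromal chemokine, was at 4363 and 3907 in WT on NC, 1607 and 1900 in WT on HFD, 3816 and 2037 in Ad-Yap/Taz-KO on NC, and 3383 and 5168 in Ad-Yap/Taz-KO on HFD. Its interaction was 1.82 ± 0.37 SE, adjusted p = 0.0093. It was lowest in WT on HFD and overlapped among the other groups. Ccl4, a macrophage chemokine, was at 98 and 148 on NC and 91 and 74 on HFD in WT, against 492 and 320 on NC and 1024 and 1067 on HFD in Ad-Yap/Taz-KO. The interaction was 1.94 ± 0.39 SE, adjusted p = 0.0091. It rose in Ad-Yap/Taz-KO only. Cxcl2 had 1.59, and Cxcl11, an interferon-induced chemokine, was negative (-2.51) and fell in Ad-Yap/Taz-KO only. Class II genes and Ccl4 are expressed by macrophages, whose markers Cd68 and Adgre1 had interactions of 2.14 and 2.26; their part was not tested. At equal totals antigen presentation had 6 positive and 1 negative calls and chemokines 6 positive and 1 negative, and with WT on HFD as 1 sample 3 and 3.

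Lysosomal genes had 8 (21.6%) negative and 2 (5.41%) positive calls of 37. The sterol carrier Npc2 was at 1992 and 2129 on NC and 5864 and 5716 on HFD in WT, against 2263 and 2388 on NC and 2907 and 2061 on HFD in Ad-Yap/Taz-KO. Its interaction was -1.42 ± 0.24 SE, adjusted p = 0.0046. The proton pump subunit Atp6v0a1 had -1.32, whereas Laptm5, a lysosomal protein of blood cells, had 2.18. The median of the list was below 0 as deposited (-0.17) and above 0 at equal totals (0.26), with 4 positive and 3 negative calls there and 3 with WT on HFD as 1 sample. Cell cycle genes had 6 (25%) positive calls and no negative one among 24, with a median of 1.30. Mki67, a marker of dividing cells, was at 617 and 758 in WT on NC, 369 and 408 in WT on HFD, 2732 and 1739 in Ad-Yap/Taz-KO on NC, and 3796 and 4226 in Ad-Yap/Taz-KO on HFD. The interaction was 1.69 ± 0.29 SE, adjusted p = 0.0052. The replication gene Mcm5 had 1.83. Cell cycle calls were 10 positive and 0 negative at equal totals and 2 with WT on HFD as 1 sample. Mki67 was higher in Ad-Yap/Taz-KO than in WT on both diets, as macrophage markers were, and their part was not tested.

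Cell death genes were examined because the study asks whether YAP and TAZ protect adipocytes from death during obesity. Bcl2l11, which encodes the BH3-only protein BIM that activates mitochondrial apoptosis (chr2:128126038-128162547, + strand), was at 1035 and 985 in WT on NC, 541 and 438 in WT on HFD, 1330 and 990 in Ad-Yap/Taz-KO on NC, and 1886 and 2031 in Ad-Yap/Taz-KO on HFD. It fell in WT by 1.05 on the log2 scale; in Ad-Yap/Taz-KO the difference was 0.77, with an unadjusted 95% interval of 0.37 to 1.17, and was not called. The interaction was 1.82 ± 0.26 SE, adjusted p = 0.0028, and it stayed called with WT on HFD as 1 sample and at equal totals. Of 11 pro-apoptotic members 2 (18.2%) were called positive, Bcl2l11 and Bbc3 (1.33), and 1 (9.09%) negative, Bid (-1.42), against 8.69% and 8.73% of all genes. At equal totals 4 members were positive and 0 negative, and 1 was called with WT on HFD as 1 sample. Bid rose in WT only, at 105 and 123 on NC and 292 and 296 on HFD in WT, against 147 and 177 on NC and 151 and 160 on HFD in Ad-Yap/Taz-KO. None of the 7 pro-survival members was called for the interaction as deposited, and 1 was called positive at equal totals. Bcl2 was at 419 and 561 on NC and 726 and 658 on HFD in WT, against 322 and 331 on NC and 224 and 301 on HFD in Ad-Yap/Taz-KO (-0.84, adjusted p = 0.078). The genotype difference of Bcl2 on HFD, Ad-Yap/Taz-KO against WT, was -1.41 and was called (limma adjusted p = 0.00039). Interactions were -0.87 for Bcl2l2, 0.43 for Mcl1 and 0.16 for Bcl2l1. Death receptors, caspases and mediators of necroptosis and pyroptosis had 7 (28%) positive and 1 (4%) negative calls of 25. Ripk3, the kinase of necroptosis, was at 503 and 409 on NC and 142 and 138 on HFD in WT, against 486 and 269 on NC and 550 and 698 on HFD in Ad-Yap/Taz-KO. Its interaction was 2.46 ± 0.38 SE, adjusted p = 0.0036. Gsdmd, the pore-forming protein of pyroptosis, had 2.17, the death ligand gene Tnfsf10 2.20 and the TNF receptor gene Tnfrsf1b 1.33. Of these, Ripk3 held with WT on HFD as 1 sample, and at equal totals the list had 8 positive and 0 negative calls. Macrophages express several of these genes as well, and the part of their markers was not tested.

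The annotated promoter of Bcl2l11 that lies farther upstream is shown, as the study turns on this gene. Neither of its annotated windows holds GGAATG on either strand, which says only that these letters are not in the 250 bases before either start. By chromatin immunoprecipitation the study found more YAP on HFD than on the standard diet at a TEAD motif of the Bim promoter region. Where that motif lies relative to these windows was not examined.
Bcl2l11, chr2:128125788-128126037, + strand: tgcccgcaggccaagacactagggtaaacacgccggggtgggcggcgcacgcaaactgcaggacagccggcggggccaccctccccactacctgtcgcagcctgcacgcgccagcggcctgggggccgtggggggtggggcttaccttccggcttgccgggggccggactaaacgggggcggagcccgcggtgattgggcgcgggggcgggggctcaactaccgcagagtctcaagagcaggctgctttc

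**Figure D4:**
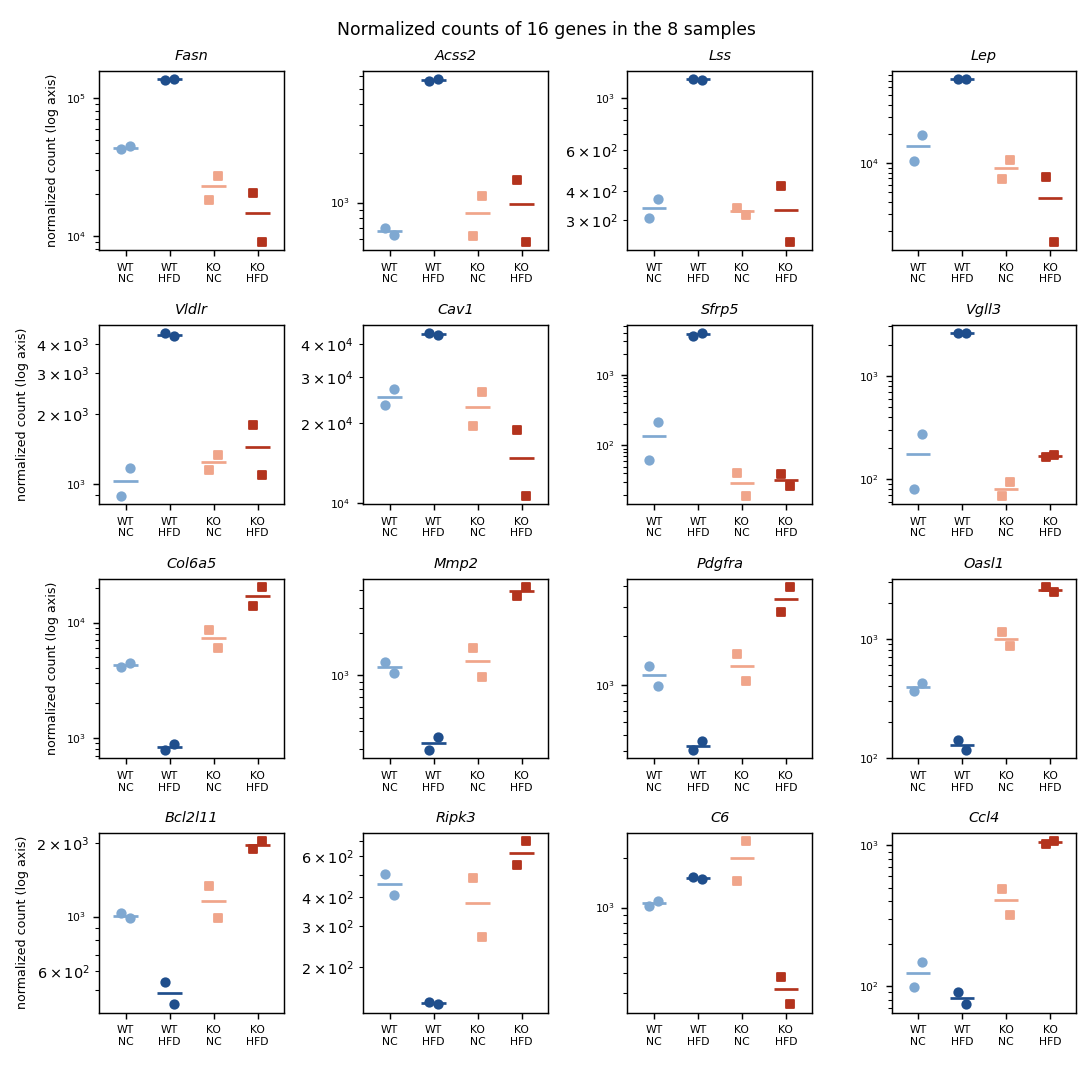
Normalized counts (log axis) of 16 genes in the 8 samples, with WT on NC and HFD and Ad-Yap/Taz-KO (KO) on NC and HFD from left to right, points for samples and lines for group means. In Fasn, Acss2, Lss, Lep, Vldlr, Cav1, Sfrp5 and Vgll3 both WT samples on HFD lie above the other 6, and in Col6a5, Mmp2, Pdgfra, Oasl1, Bcl2l11 and Ripk3 below them.

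Of 21 listed targets of YAP and TAZ 3 (14.3%) were positive and 1 (4.76%) negative, together 4, against 17.4% of all genes called in either direction. Ctgf (-0.12), Cyr61 (-0.31), Amotl2 (-0.62) and Lats2 (-0.10) were not called. Ctgf was at 101 and 154 on NC and 203 and 242 on HFD in WT, against 120 and 56 on NC and 98 and 185 on HFD in Ad-Yap/Taz-KO. Cyr61 was at 5335 and 5442 on NC and 10496 and 10339 on HFD in WT, against 2494 and 1657 on NC and 3057 and 3288 on HFD in Ad-Yap/Taz-KO. The difference between diets was 0.82 in WT, against 0.71 in Ad-Yap/Taz-KO for Ctgf, and 0.95 and 0.64 for Cyr61. Axl, a receptor tyrosine kinase, was at 981 and 995 in WT on NC, 434 and 575 in WT on HFD, 1552 and 1095 in Ad-Yap/Taz-KO on NC, and 3040 and 3310 in Ad-Yap/Taz-KO on HFD. The interaction was 2.26 ± 0.28 SE, adjusted p = 0.0014. It fell in WT and rose in Ad-Yap/Taz-KO. Ccdc80, a secreted matrix protein, had -1.81. Among 20 Hippo kinases, scaffolds and TEAD factors 6 (30%) were negative and 1 (5%) positive. Vgll3, a TEAD co-factor that competes for the surface YAP binds, was at 80 and 274 in WT on NC, 2599 and 2593 in WT on HFD, 69 and 94 in Ad-Yap/Taz-KO on NC, and 163 and 172 in Ad-Yap/Taz-KO on HFD. Its interaction was -3.07 ± 0.59 SE, adjusted p = 0.0074. Both WT samples on HFD were far above the rest. Tead1 had -1.07 and the scaffolds Amotl1 and Amot -1.11 and 1.30; Tead1 and Amotl1 were not called at equal totals, where both list medians lay above 0. Equal totals gave 4 positive and 1 negative calls for the targets and 3 positive and 1 negative for the Hippo list, and WT on HFD as 1 sample gave 1 and 1.

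A called interaction with a called response to HFD in Ad-Yap/Taz-KO only was found for 101 genes. That count was 8 with WT on HFD as 1 sample, 7 without WT HFD replicate 2 or without Ad-Yap/Taz-KO NC replicate 2, 462 when Ad-Yap/Taz-KO NC replicate 1 was left out and 344 when the first Ad-Yap/Taz-KO sample on HFD was. Of the 25 genes that rose with HFD in Ad-Yap/Taz-KO only, Cd72, a receptor of B cells and macrophages (chr4:43446462-43454628, - strand), was at 35 and 15 in WT on NC, 17 and 12 in WT on HFD, 74 and 72 in Ad-Yap/Taz-KO on NC, and 497 and 324 in Ad-Yap/Taz-KO on HFD. The interaction was 3.09 ± 0.68 SE, adjusted p = 0.012. Cadm1, an adhesion molecule, was at 82 and 53 on NC and 39 and 50 on HFD in WT, against 469 and 272 on NC and 1246 and 1303 on HFD in Ad-Yap/Taz-KO. Its interaction was 2.40 ± 0.45 SE, adjusted p = 0.0067. It was above WT in Ad-Yap/Taz-KO on both diets. Itgbl1, an integrin beta-like secreted protein, was at 32 and 47 on NC and 34 and 41 on HFD in WT, against 22 and 33 on NC and 126 and 191 on HFD in Ad-Yap/Taz-KO (2.54). Arhgap22, a regulator of Rac, was at 50 and 51 on NC and 33 and 38 on HFD in WT, against 57 and 43 on NC and 182 and 184 on HFD in Ad-Yap/Taz-KO (2.36). The imprinted gene Zim1 had 2.29; it was lowest in Ad-Yap/Taz-KO on NC, at 11 and 5, and at 64 to 170 in the other groups. Ccl4, Cd72 and Cadm1 stayed called with WT on HFD as 1 sample.

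Of the 76 genes that fell in Ad-Yap/Taz-KO only, C6, a component of the complement membrane attack complex (chr15:4727175-4815456, + strand), was at 1023 and 1101 in WT on NC, 1539 and 1504 in WT on HFD, 1447 and 2542 in Ad-Yap/Taz-KO on NC, and 376 and 256 in Ad-Yap/Taz-KO on HFD. Both Ad-Yap/Taz-KO samples on HFD lay below all others, and the interaction was -3.14 ± 0.35 SE, adjusted p = 0.0012. Trhde, a peptidase that inactivates thyrotropin-releasing hormone, was at 360 and 406 on NC and 579 and 572 on HFD in WT, against 298 and 426 on NC and 111 and 31 on HFD in Ad-Yap/Taz-KO. The interaction was -3.17 ± 0.61 SE, adjusted p = 0.0075. Klhdc7a, a kelch domain protein, was at 2244 and 4114 on NC and 5613 and 5560 on HFD in WT, against 1672 and 2447 on NC and 936 and 449 on HFD in Ad-Yap/Taz-KO. Its interaction was -2.52 ± 0.46 SE, adjusted p = 0.0061. Il13ra2, a decoy receptor for interleukin-13, had -3.57, the potassium channel subunit Kcns3 -2.42 and the non-coding Gm30173 -2.75. All but Il13ra2 of these 6 stayed called with WT on HFD as 1 sample. The 2 Ad-Yap/Taz-KO samples on HFD were the ones with the lowest summed adipocyte markers, an order that rests in part on Cfd. The part of these markers in the falls was not tested.

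Of the 30 genes that moved in opposite directions, 25 fell in WT and rose in Ad-Yap/Taz-KO, and 5 did the reverse. Besides Col6a5 and Mmp2, Cpxm1, a secreted carboxypeptidase homologue, was at 535 and 447 on NC and 95 and 110 on HFD in WT, against 681 and 445 on NC and 1078 and 1238 on HFD in Ad-Yap/Taz-KO. The interaction was 3.31 ± 0.33 SE, adjusted p = 0.00063. Cpe, the prohormone-processing carboxypeptidase E, was at 378 and 371 on NC and 136 and 153 on HFD in WT, against 587 and 317 on NC and 1317 and 1417 on HFD in Ad-Yap/Taz-KO. Its interaction was 3.03 ± 0.36 SE, adjusted p = 0.0014. The imprinted Rtl1 had 3.27. Acta1, the skeletal muscle actin, was at 97 and 101 in WT on NC, 376 and 445 in WT on HFD, 1359 and 2207 in Ad-Yap/Taz-KO on NC, and 334 and 66 in Ad-Yap/Taz-KO on HFD. The interaction was -5.57 ± 0.74 SE, adjusted p = 0.0022. It was highest in Ad-Yap/Taz-KO on NC and lowest in 1 sample of Ad-Yap/Taz-KO on HFD. Of the 5 genes that moved the same way, Paqr9, of the membrane progestin receptor family, was at 553 and 514 on NC and 4173 and 4472 on HFD in WT, against 204 and 146 on NC and 766 and 317 on HFD in Ad-Yap/Taz-KO. Its interaction was -1.51 ± 0.45 SE, adjusted p = 0.037. Cish, a feedback inhibitor of cytokine receptors, was at 1979 and 1091 on NC and 236 and 242 on HFD in WT, against 916 and 1098 on NC and 400 and 482 on HFD in Ad-Yap/Taz-KO. The interaction was 1.43 ± 0.35 SE, adjusted p = 0.018. Cyp2f2 (-2.46) fell and the serine protease gene Htra3 (-1.25) rose in both, and Cfd is given above.

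**Figure D5:**
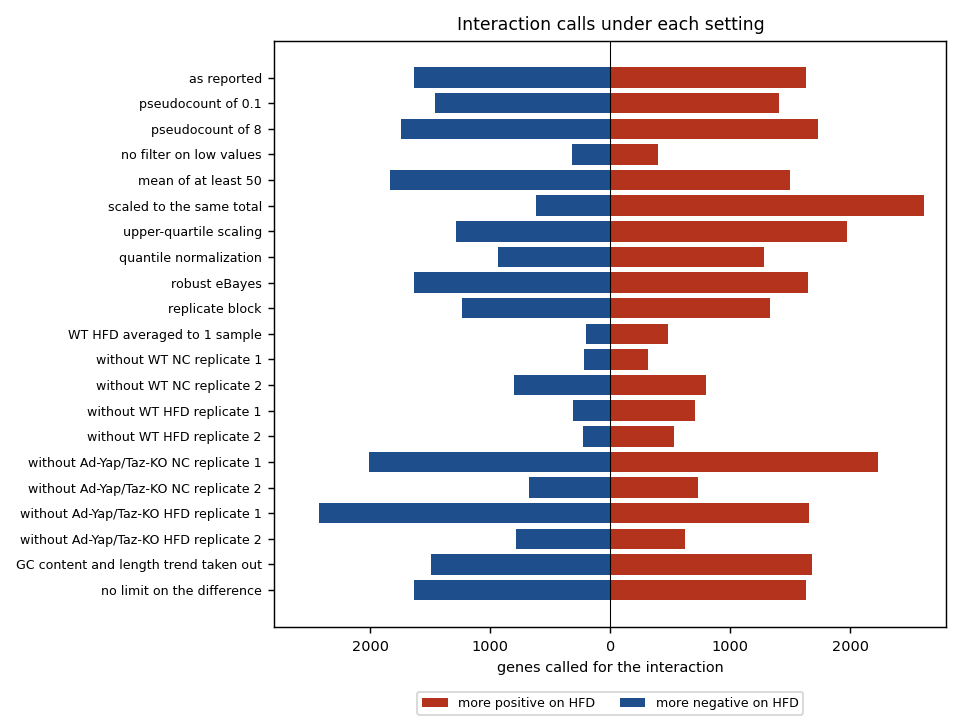
Genes called for the interaction under each setting, with positive calls to the right and negative calls to the left of 0. As reported there were 1633 and 1641 calls, with WT on HFD averaged to 1 sample 477 and 203, and at equal totals 2610 and 619.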

How the data were processed

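RNA of isolated epididymal adipocytes was measured in 8 samples, 2 in each of 4 groups given by the labels. Per the labels and the study's methods, the authors trimmed reads with Reaper, aligned them to GRCm38 (mm10) with STAR 2.5.2b, counted reads on genes with featureCounts 1.5.1 and normalised with DESeq2 1.14.1; the kit keeps the strand, but its use in counting is not given in the sources used here. The deposited values are a score: gene counts divided by 1 size factor per sample and rounded by the authors. The reads on genes were estimated from the step between values. Where a gene is at 0, up to 3 counts would still be compatible with that value, from counting error alone.

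All tests here used limma 3.58.1 in R 4.3.3 (lmFit, contrasts.fit, eBayes with trend) on log2 of the value plus 1, with 1 mean per group and all 8 samples in 1 fit, 4 residual and 8.59 prior degrees of freedom, and Benjamini-Hochberg adjustment over 18800 genes. Log2 differences on this scale understate changes of low genes. Diet and genotype contrasts came from the same fit and share samples with the interaction, so the response classes are descriptions. On simulated data of 18800 genes, 35 of 100 genes changed by 2 on the log2 scale were called in the interaction, and none when nothing was changed. Every gene and group was drawn there with 1 common spread, whereas the real groups differed in theirs. The simulation therefore cannot tell how many calls unequal spread would give. Tables and figures were made with Python 3.11.15, numpy 2.4.6, pandas 2.3.3 and matplotlib 3.10.9.

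The members, 39 function lists and 7 marker lists were chosen with earlier results of these data known, so no list was tested; 11 listed symbols were not analysed here. Named genes were, Yap1, Wwtr1, the markers, per response class up to 6 of the largest absolute interaction whose mean reached 50, with the same sign in all 8 fits that leave out 1 sample, diet groups without overlap and no pseudogene, and per list up to 4 called members with the largest absolute interaction, or the member with the smallest adjusted p. Some genes chosen by the rule are not reported here. Further list members are given as examples chosen after their values were seen. Alternatives were a pseudocount of 0.1 or 8, no filter or a mean of 50 or more, 3 other scalings, robust eBayes, a replicate block, WT on HFD as 1 sample, each sample left out, a GC content and length trend taken out, and no limit on the difference. Promoters came from a RefSeq table; those of 11884 tested symbols matched.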

Additional observations from a re-analysis of the deposited data

Results flagged for a closer look

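The response to HFD differed between the genotypes in 1633 genes with a positive and 1641 with a negative interaction, and the genes below are those picked by the naming rule whose difference was called by limma both with the WT samples on HFD as 2 samples and with their mean as 1. The test was that of the difference in response between the genotypes. All values are log2 interactions, and no group had enough samples for a test of single outlying samples.

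Among genes of lipid synthesis, uptake and energy metabolism the interaction was -2.97 for Acss2, -2.36 for Fasn, -2.17 for Insig1, -1.86 for Lss, -1.94 for Vldlr, -1.37 for Pcca, -1.42 for Pgam1, -2.41 for Sod3 and -1.68 for Gstm1. Of adipokines, receptors, channels and signalling genes it was -3.73 for Lep, -3.08 for Rbp4, 2.19 for C1qtnf6, -2.52 for Ptger3, 3.14 for Avpr1a, -2.24 for Kcnk3, -2.02 for Prkcdbp, -5.40 for Golga7b, -4.85 for Sfrp5, -4.12 for Fgf13 and -3.07 for Vgll3.

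In collagens and other matrix genes the values were 3.59 for Col6a5, 3.39 for Col4a6, 3.02 for Col7a1, 2.87 for Col6a6, 3.46 for Mmp2, 2.85 for Mmp14, 3.34 for Mmp11, 2.81 for Adamts15 and -1.25 for Htra3. Cytoskeletal genes, growth factor pathways and imprinted genes gave 2.12 for Myl9, -5.57 for Acta1, 2.78 for Fst, 2.83 for Sfrp1, -1.42 for Lgr4, 3.35 for Pappa, 6.76 for H19, 2.80 for Meg3, 3.27 for Rtl1, 3.31 for Cpxm1 and 3.03 for Cpe.

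Immune, stress and cell death genes gave 3.52 for Oas2, 3.0 for Oasl1, 1.79 for H2-Ab1, 1.76 for Cd74, 1.65 for H2-Aa, 1.59 for Cxcl2, 1.94 for Ccl4, 3.09 for Cd72, 2.18 for Laptm5, -1.42 for Npc2, -1.32 for Atp6v0a1, 1.53 for Atf3, 1.82 for Bcl2l11, 2.46 for Ripk3 and 2.26 for Axl. Cell cycle, clock and other genes gave 1.83 for Mcm5, 1.69 for Mki67, 4.50 for Npas2, 7.94 for Pcp4l1, 5.22 for Fam83f, 5.16 for Kcna2, 5.16 for Cadm4, 4.99 for 4933430L12Rik, 4.76 for Gatm, 2.40 for Cadm1, -3.17 for Trhde, -3.14 for C6, -2.75 for Gm30173, -2.52 for Klhdc7a and -2.42 for Kcns3. The sizes for Pcp4l1 and H19 depend on the 1 added before taking logs, and that of H19 rests on a few reads.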

How the results depend on the processing

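The number of genes called was within 1.5 times of 3274 with a pseudocount of 0.1 or 8, a mean of 50 or more, 3 other scalings, robust eBayes, the replicate block, the GC content and length correction and no limit on the difference. Without a filter on low values it was 721 (400 positive, 321 negative, 544 with a response in WT only and 2 in Ad-Yap/Taz-KO only); that fit tests more genes. With WT on HFD as 1 sample it was 680 (477 positive, 203 negative, 348 in WT only, 8 in Ad-Yap/Taz-KO only), and 87 of the 209 named genes stayed called. At equal totals 2610 genes were positive and 619 negative. Quantile normalization gave 937 negative genes and 1314 with a response in WT only. The number with a response in Ad-Yap/Taz-KO only was 53 with a pseudocount of 0.1.

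Leaving out 1 sample gave 530 to 4249 calls, 313 to 2233 positive, 217 to 2425 negative, 290 to 2287 with a response in WT only and 7 to 462 in Ad-Yap/Taz-KO only. All calls together fell to 530 without WT NC replicate 1, 1599 without WT NC replicate 2, 1021 and 757 without WT HFD replicate 1 and 2, 1405 without Ad-Yap/Taz-KO NC replicate 2 and 1411 without Ad-Yap/Taz-KO HFD replicate 2. The Ad-Yap/Taz-KO only class rose to 462 without Ad-Yap/Taz-KO NC replicate 1 and 344 without Ad-Yap/Taz-KO HFD replicate 1. The lone sample is then assumed to vary like the others, and the cause of these changes was not tested.

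The replicate number did not pair the samples: correlations of their deviations between groups ran from -0.30 to 0.11. With the replicate block 2568 genes were called, and 53 had a response in Ad-Yap/Taz-KO only. Scaling to equal totals moved the median interaction of all genes from 0.10 to 0.52, and 11 of 39 function list medians changed sign under another scaling. Low genes are limited by depth: a value of 0 allows up to 3 counts.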

Other observations

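Reads of genes that overlap on the opposite strand cannot be told apart where counting ignored the strand. Over the exons of the named genes such an overlap covered 47.3% for Fstl3, 41.7% for Cxcl11, 41.6% for Cd72, 36.9% for Arhgap22, 22.9% for Fam83f, 22.5% for Prkcdbp and 19.9% for 4933430L12Rik in the GENCODE vM21 annotation. Transcripts annotated on the same strand covered 68.7% of the macrophage marker Itgam, 62.8% of Igf2 and 34.4% of Ctsd, so the values of these genes are uncertain.

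Among genes classed by biotype, positive interactions outnumbered negative ones in antisense RNAs (51 against 6 of 820 tested) and lincRNAs (36 against 12 of 640), whereas protein-coding genes had 1396 positive and 1598 negative of 14609. Over all genes 8.69% were positive and 8.73% negative, and the positive shares of both non-coding classes lay below that. Of all 6707 genes with a mean of 5 to 50, 270 were positive and 31 negative. The part of abundance in the counts by biotype was not tested. Across the 18800 genes the correlation of the response to HFD in WT with that in Ad-Yap/Taz-KO was -0.18 (Pearson's r), and -0.25 over the 12093 whose mean reached 50; these responses share no samples, but genes are not independent replicates.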
